A study of Mus musculus with 16 samples.

Results

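The comparison is a difference of differences. For every gene, the log2 ratio of Sox2 immunoprecipitate (IP) to input was taken after formaldehyde crosslinking (fRIP) and after UV crosslinking (UV-RIP), and the UV value was subtracted from the fRIP value. A positive difference means that the RNA was recovered relatively better in the Sox2 IP after formaldehyde than after UV, and a negative difference the reverse. All 16 of the 16 libraries of the series entered it. They come from male mouse embryonic stem cells (mESC) grown with LIF and the 2 inhibitors PD0325901 and CHIR99021 on gelatin, with no genetic change stated, and from 8 culture plates, 4 crosslinked with formaldehyde (numbered 3 to 6) and 4 with UV light (also numbered 3 to 6). Each plate gave 1 IP library and 1 input library from the same sonicated lysate. No plate received both crosslinkers, so the crosslinker and the plates that carry it cannot be told apart, and the p-values below measure the spread between plates.

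Formaldehyde forms short covalent bridges between proteins and between protein and nucleic acid, so RNA can be held to a protein through a partner. UV light of short wavelength joins protein to RNA where they touch. A total RNA library also holds unspliced RNA, which stays at the gene in the nucleus, next to the spliced mRNA that ribosomes translate in the cytoplasm. Sox2 is a nuclear transcription factor with a high mobility group DNA-binding domain.

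The values are unique molecular identifiers (UMIs) that the authors counted over whole gene bodies, introns included. The totals were between 12456298 and 21211537 UMIs per library, and 22936 of 53379 genes had 3 or more UMIs in at least 1 library and were tested. Of the 8 stem cell markers, 7 were detected in every group, with summed levels of 2060 to 2196 CPM (UMIs scaled to a common library total) in the UV inputs and 3446 to 4178 CPM in the fRIP inputs. The eighth, Sox2, was listed at 0 UMIs in all 16 libraries, and its gene lies inside that of Sox2ot. The markers of fibroblasts and of the totipotent 2-cell state summed to at most 4.71 and 4.22 CPM in any group, those of primitive endoderm to at most 14.6 CPM, and those of primed epiblast to between 218 and 302 CPM. A locus that resembles ribosomal RNA, Gm26917, took 18.4 to 22.3% of the UMIs of the UV IP libraries and 5.44 to 12.4% of the fRIP IP libraries, and its own difference was -0.55 (adjusted p = 5.97e-05). The fRIP plate 4 stood apart from the other fRIP plates for short noncoding RNAs and histones. Its median log2 IP to input ratio over the RNAs made by RNA polymerase III was -4.65, against -0.65 to -0.06 in the other fRIP plates, and values without it are given beside the results that it moved most.

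Enrichment differed between the crosslinkers for 6116 genes (edgeR quasi-likelihood test of the interaction, Benjamini-Hochberg adjusted p below 0.05), 4264 of them higher in fRIP and 1852 lower. These are 18.6% and 8.07% of all genes tested. Where the average was at least 10 UMIs per library, which held for 15131 genes, the shares were 27.8% and 12.1%. The 4 fRIP plates all lay above the 4 UV plates for 19.6% of the genes tested and all below them for 8.69%. The median difference was 0.53 over the genes called higher and -0.50 over those called lower, and 1806 and 616 of them had a difference of at least 1.5-fold. The median over all genes was 0.15 with the total UMIs as library size, and 0.03 with TMM scaling, so the zero point moves with the scaling. Of the calls 69.7% were higher in fRIP in the first case and 52.2% in the second, and differences near the median of all genes are described only relative to it.

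With total UMIs as library size, genes called higher were mostly not above input with both reagents. Over all genes tested the median log2 ratio of IP to input was -0.03 in fRIP and -0.17 in UV-RIP. The side of input on which a gene lies thus moves with the zero point, and the split is given for this scaling only. Of the 4264, 2380 were above input in fRIP and below it in UV-RIP, 1379 were above input with both and 505 below input with both. Of the 1852 called lower, 1490 were below input with both reagents and further below it in fRIP, 345 were below input in fRIP and above it in UV-RIP, and 17 were above input with both. The genes called higher had long bodies with little exon, with a median of 63757 bases of which 8.17% was exonic. The genes called lower had a median body of 8916 bases, of which 35.6% was exonic. All genes tested had a median of 16870 bases and 19.9%. Their GC content was alike, with medians of 49.3% for the genes called higher, 49.6% for those called lower and 49.5% for all.

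**Figure D1:**
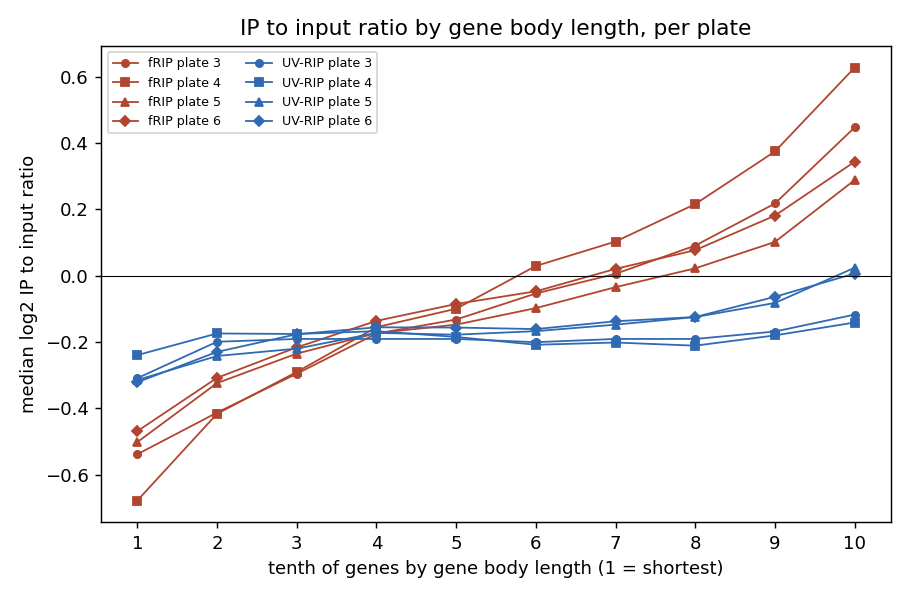
Median log2 IP to input ratio (vertical axis) of the genes in each decile of gene-body length (horizontal axis, shortest to longest), over 15131 genes averaging at least 10 UMIs, with 1 line per plate. The 4 fRIP lines climb from between -0.68 and -0.47 in the shortest decile to between 0.29 and 0.63 in the longest, whereas the UV lines run from between -0.32 and -0.24 to between -0.14 and 0.02.

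The crosslinker difference followed gene-body length. The plot of plate medians by decile of length shows all 4 fRIP plates climbing with length more steeply than any UV plate. The median difference was -0.32 in the shortest decile (57 to 3969 bases), 0.07 in the fifth decile and 0.52 in the longest (134489 bases and more). In the shortest decile 7.53% of the genes were called higher and 29.3% lower, and in the longest 69.1% and 0.661%. Across the 15131 genes the Spearman correlation of the difference with body length was 0.46, and across 13243 protein-coding genes it was 0.58. These are descriptions across genes of the same 16 libraries, and genes are not independent replicates. The correlation with the exonic share of the body was -0.49 across the 13411 genes for which it could be computed. The values were smaller for exonic length (0.16) and close to none for GC content (-0.01) and the mean UMI count (-0.04). In the decile of genes with the smallest exonic share of the body the median difference was 0.56, and in the decile with the largest share it was -0.25. The 235 protein-coding genes with no intron had a median of -0.54, with 3 called higher and 115 lower, and without the histone genes 182 such genes had a median of -0.46.

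The difference has an IP side and an input side. For the longest decile the fRIP IP exceeded the UV IP by a median of 0.19 in log2 CPM, while the fRIP input was below the UV input by 0.30 (a median of -0.30). For the shortest decile the fRIP IP exceeded the UV IP by 0.24 and the fRIP input exceeded the UV input by 0.49. Over all genes with 10 or more UMIs the IP side had a median of 0.17 and the input side of 0.02. From the shortest to the longest decile the input side moved further than the IP side. Total RNA of plates that were not crosslinked was not analysed here.

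**Figure D2:**
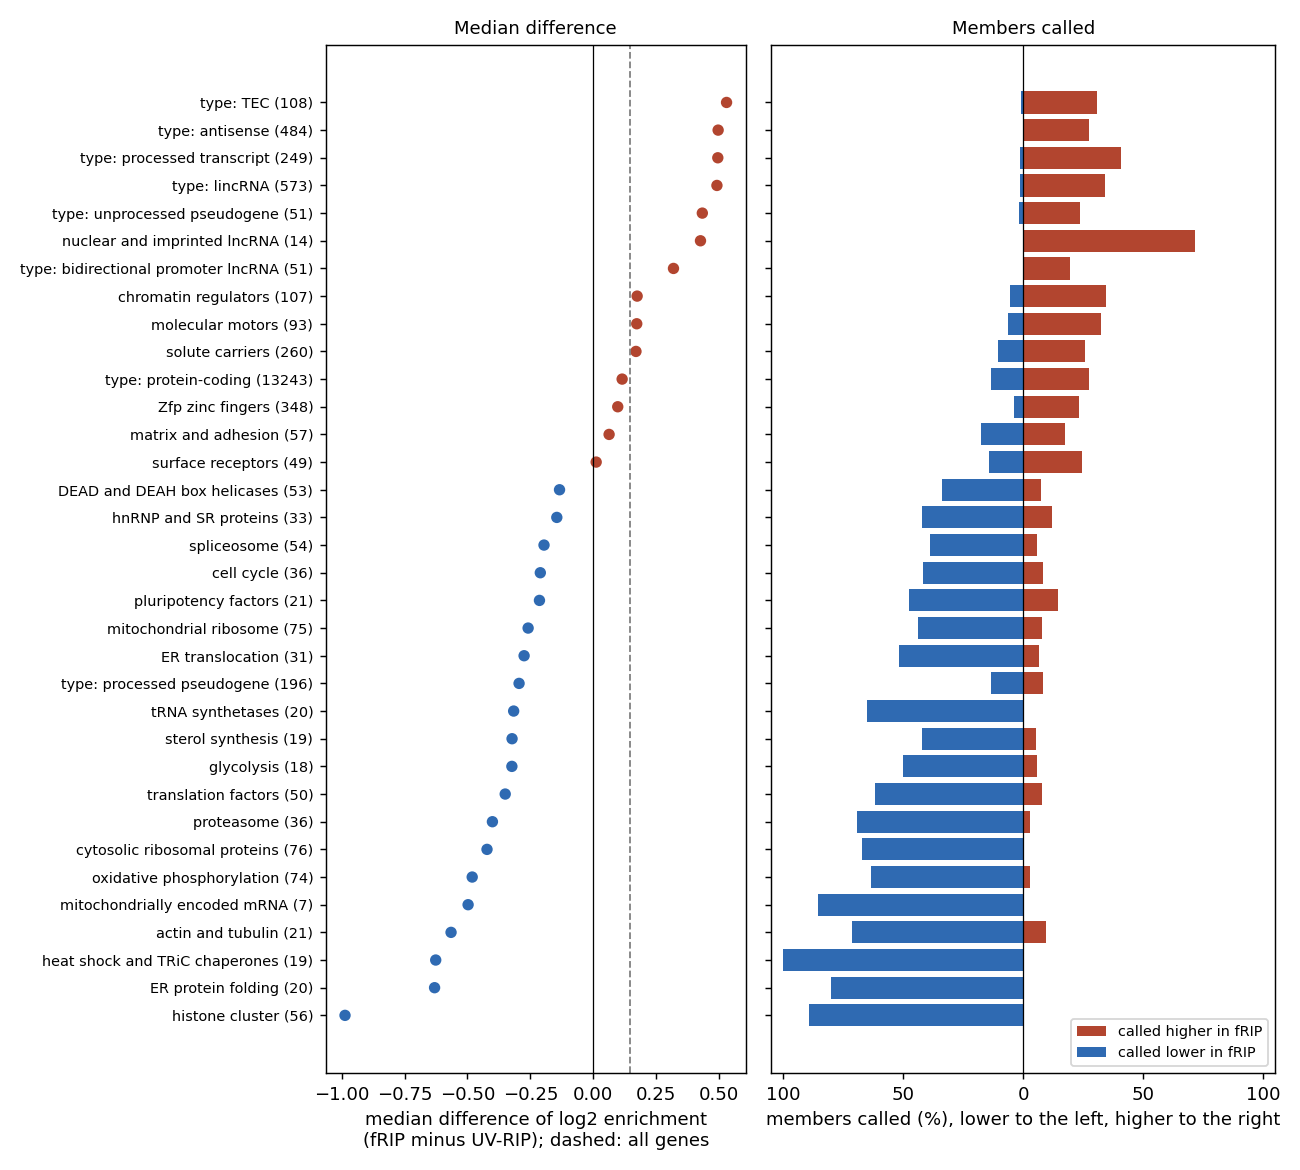
Median difference in log2 enrichment, fRIP minus UV-RIP (left), and the percentage of tested genes called higher or lower (right), for functional classes and transcript types. Histone genes, with a median of -0.99, and chaperones, with -0.63, lie at the lower end, and the long noncoding types, near 0.5, at the upper end.

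Cluster histone genes stood far towards UV. Most of these genes are intronless, and their mRNAs typically end in a stem-loop in place of a poly(A) tail, which the stem-loop binding protein holds during S phase. Of 59 tested, 50 were called lower in fRIP and 0 higher, with a median of -0.99 over the 56 with 10 or more UMIs. The plate medians of the log2 IP to input ratio were -0.89, -2.11, -0.99 and -0.88 in fRIP and -0.28, -0.02, -0.29 and -0.32 in UV-RIP, and the groups did not overlap. Plate 4 was the lowest fRIP plate by a wide margin, and without it the median difference was -0.65 and again 50 genes were called lower. With the trend on body length removed 31 were called lower, and the median relative to all genes went from -1.12 to -0.71. All families took part. The linker H1 genes had 6 of 6 called lower with a median of -0.70, H2A 12 of 13 with -0.88, H2B 10 of 16 with -0.89, H3 10 of 11 with -0.99 and H4 12 of 13 with -1.39. The fRIP input held more histone RNA than the UV input, by a median of 1.74 in log2 CPM, and the fRIP IP more than the UV IP by 0.78. Histone copies are near-identical, and the authors kept only reads that mapped to a unique place, so the value of a single copy is uncertain.

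The stem-loop letters are shown for 1 gene each of 4 families, because they are the element these mRNAs are known for. The motif GGNTCTTTTNAGNGCC was searched on the RNA strand of the GENCODE vM21 transcripts of the tested genes and was found in 30 of 22894 genes (0.131%), 27 of them cluster histones, and on the other strand in 4. Each sequence is read 5′ to 3′ on the gene's strand, and the capitals mark the match to the motif.
Hist1h2ad: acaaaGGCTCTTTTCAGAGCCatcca
Hist1h3e: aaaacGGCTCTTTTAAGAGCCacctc
Hist1h2bb: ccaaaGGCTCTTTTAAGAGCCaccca
Hist1h1c: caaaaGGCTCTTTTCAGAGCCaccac
All 4 lie in the histone cluster of chromosome 13 of GRCm38, at 23574381 to 23574952 (plus strand) for Hist1h2ad, 23561534 to 23562369 (minus strand) for Hist1h3e, 23746734 to 23747241 (plus strand) for Hist1h2bb and 23738808 to 23740367 (plus strand) for Hist1h1c. Their differences were -1.55, -1.19, -1.10 and -0.79. The 27 histone genes with the match had a median of -0.91 with 23 called lower, and the 32 without it a median of -1.02 with 27 called lower. A missing match does not show that the element is absent, since the motif is strict and an annotated transcript may stop short of it. None of the H4 genes matched, and H4 had the lowest family median, -1.39. The split therefore also divides families, and an effect of the element was not tested.

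Hist1h2ad, which encodes a core histone of the H2A family, had log2 IP to input ratios of -0.72, -2.07, -1.39 and -0.96 in the fRIP plates 3 to 6. In the UV plates 3 to 6 they were -0.01, 0.07, 0.26 and 0.49. The difference was -1.55 (standard error 0.23, adjusted p = 1.15e-05) and -1.24 without fRIP plate 4. The fRIP plates all lay below input and the UV plates close to it or above. Hist1h4c, which encodes histone H4, had -1.21, -3.64, -1.16 and -1.44 in fRIP and -0.53, 0.00, -0.34 and -0.32 in UV-RIP. Its difference of -1.57 (adjusted p = 5.04e-04) was -0.97 without fRIP plate 4. Of the 12 largest negative differences among called genes with 100 or more UMIs and no overlap of plates, 9 were cluster histones, and the other 3 were Terc, mt-Nd6 and Gm42743. This ranking was taken with fRIP plate 4 included, and its order rests partly on that plate. In the histone genes plate 4 moved the size of the difference and not the side of the UV plates on which fRIP lay.

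Chaperone mRNAs were lower in fRIP without exception. All 19 tested genes of the heat shock and TRiC list, which hold the cytosolic, mitochondrial and ER folding machines, were called lower, with a median of -0.63 that was -0.55 without fRIP plate 4. With the length trend removed 17 were called lower, and the median relative to all genes went from -0.77 to -0.72. Their plate medians were -0.69, -1.03, -0.83 and -0.69 in fRIP and -0.18, -0.18, -0.22 and -0.14 in UV-RIP. The TRiC subunits, which fold actin and tubulin, ran from -0.79 for Cct8 to -0.56 for Cct7. The mitochondrial chaperonin Hspd1 had -0.77. The cytosolic Hsp90ab1 and Hspa4 had the smallest differences of the list, at -0.38 and -0.22.

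Hspa5, the ER chaperone BiP, had the largest difference of the chaperones. It lies on the plus strand of chromosome 2 from 34771970 to 34777547. Its ratios were -1.12, -1.63, -1.16 and -1.01 in fRIP and -0.11, -0.19, -0.17 and -0.11 in UV-RIP, so every fRIP plate lay far below every UV plate. With formaldehyde, 130 ± 7.77 CPM came down and the input held 307 ± 55.8, and with UV 273 ± 4.23 came down from 301 ± 9.04 (SD, n = 4 each). For Hspa5 the inputs were level and the IP libraries were not. The list as a whole was the other way round, since its median in log2 CPM was 0.24 higher in the fRIP IP than in the UV IP and 0.89 higher in the fRIP input than in the UV input. The difference had a standard error of 0.10 and an adjusted p of 2.94e-08, and was -0.95 without fRIP plate 4.

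A list of 20 genes of ER protein folding was chosen after Hspa5 was seen and holds it, so it is no independent evidence of direction. Of the 20, Hspa5 included, 16 were called lower and 0 higher, with a median of -0.63. The plate medians were -0.91, -1.06, -0.87 and -0.73 in fRIP and -0.20, -0.21, -0.23 and -0.18 in UV-RIP. Sdf2l1, an ER co-chaperone, had -1.13 (adjusted p = 4.85e-07), the ER-resident Hsp90b1 -0.95, and the disulfide isomerases Pdia3, P4hb and Pdia6 had -0.93, -0.89 and -0.88. Unlike the histones and the chaperone list, with which it shares Hspa5 and Hsp90b1, this class differed on the IP side, where fRIP was below UV-RIP by a median of -0.75 in log2 CPM, and not on the input side, at -0.08. The genes of ER translocation and signal peptide removal had 16 of 31 called lower and 2 higher, with a median of -0.27. Among them Spcs1, a signal peptidase subunit, had -1.02 and Sec11a, another subunit, 0.37. The sterol synthesis enzymes, which sit in the ER membrane for the most part, had 8 of 19 lower and 1 higher. Their IP side was -0.57 and their input side -0.22. Ebp, Cyp51 and Msmo1 had -0.78, -0.63 and -0.60, and Mvk, the cytosolic mevalonate kinase, had 0.44.

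**Figure D3:**
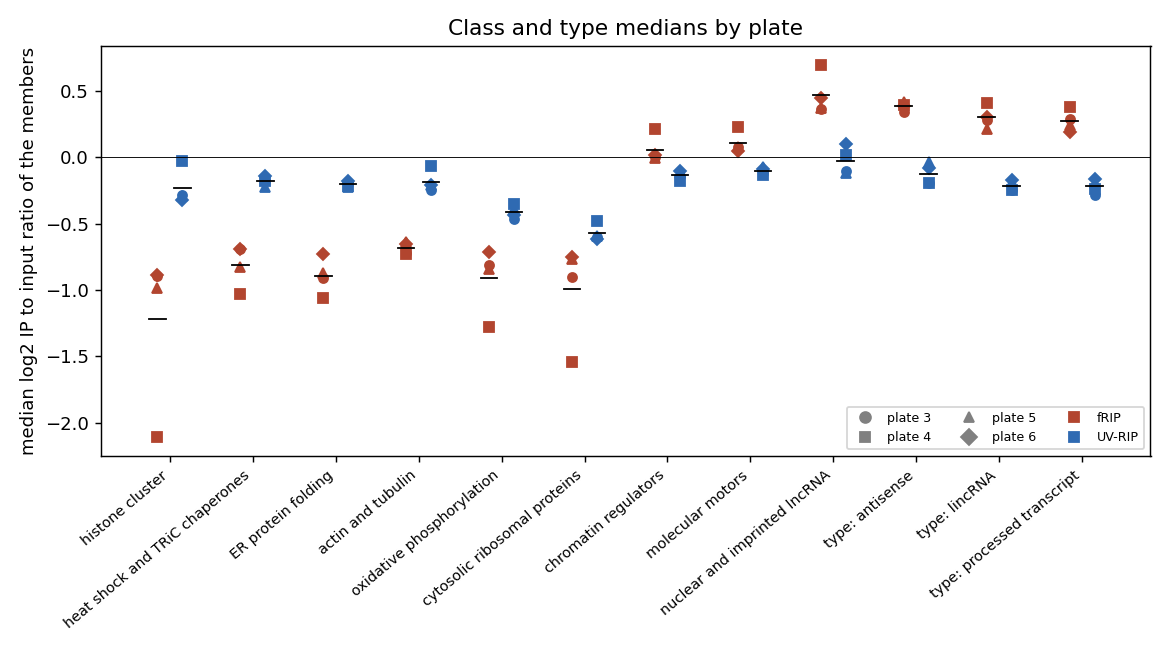
Median log2 IP to input ratio of the members with 10 or more UMIs (vertical axis) in each plate for 9 functional classes and 3 transcript types, fRIP in red and UV-RIP in blue, with the plate given by the symbol and the mean of the 4 plates by a bar. The fRIP plates lie below the UV plates for the 6 classes at the left and above them for the long noncoding types at the right, and fRIP plate 4 is lowest for histones, at -2.11, and ribosomal proteins, at -1.55.

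In the lists of the translation and energy machinery more genes were called lower than higher in fRIP, and many were not called. Cytosolic ribosomal protein genes had 51 of 77 called lower and 0 higher, with a median of -0.42. Their plate medians were -0.91, -1.55, -0.77 and -0.75 in fRIP and -0.60, -0.48, -0.59 and -0.62 in UV-RIP, so these mRNAs were below input with both reagents and further below it with formaldehyde. The difference lay on the input side, with a median of 0.65 in log2 CPM, and the IP side had 0.24. The class rested on plate 4 and on length more than the chaperones did. Without fRIP plate 4 the median was -0.23 and 43 were called lower, and with the trend on body length removed 11 were called lower and 1 higher. Rplp1, a protein of the ribosomal stalk, had the largest difference, -0.93 (adjusted p = 6.25e-04), and -0.58 without plate 4.

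Translation factors had 31 of 53 lower and 4 higher, aminoacyl-tRNA synthetases 13 of 20 lower and 0 higher, and mitochondrial ribosomal proteins 33 of 75 lower and 6 higher. Of the mitochondrial ribosomal protein genes 36 were not called, and with the length trend removed 8 were lower and 5 higher. Without fRIP plate 4 their median went from -0.26 to -0.22. The input sides of the 3 lists were 0.57, 0.81 and 0.34, and the IP sides 0.24, 0.52 and 0.13. Eif5a, the hypusinated elongation factor, had ratios of -0.96, -1.32, -0.86 and -0.84 in fRIP and -0.22, -0.15, -0.36 and -0.33 in UV-RIP, a difference of -0.73 (adjusted p = 1.62e-06). Eif4g3, an initiation scaffold whose gene spans 215487 bases, went the other way. It had 0.63, 1.04, 0.62 and 0.62 in fRIP and -0.09, -0.16, 0.01 and 0.03 in UV-RIP, a difference of 0.78 (adjusted p = 6.93e-07). Among the mitochondrial ribosomal proteins Mrpl32 had -0.73, and Mrps28, with a body of 121773 bases, 0.77. The 6 mitochondrial ribosomal protein genes called higher had bodies from 31228 bases (Mrps35) to 121773, against a median of 7905 for the list.

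The nuclear-encoded subunits of oxidative phosphorylation had 47 of 74 called lower and 2 higher, with a median of -0.48 and -0.34 without fRIP plate 4. Their input side had a median of 0.45 and their IP side of -0.02. The plate medians were -0.81, -1.28, -0.84 and -0.71 in fRIP and -0.46, -0.35, -0.39 and -0.43 in UV-RIP. Cox8a of cytochrome oxidase had -0.87, and Atp5a1 and Atp5b, the catalytic core of ATP synthase, -0.77 and -0.76. Proteasome genes had 25 of 39 lower and 1 higher with a median of -0.40 that was -0.29 with 23 lower and 2 higher without fRIP plate 4, led by Psmb4, a subunit of the core particle, at -0.80. The proton pump list had 9 of 22 lower and 0 higher, and the glycolytic enzymes 9 of 18 lower and 1 higher, with Tpi1, triose phosphate isomerase, at -0.79 and Gapdh at -0.48. Of the actin and tubulin genes 15 of 21 were lower and 2 higher. Actb and Tubb5 had -0.76 and -0.74. The actin-capping genes Capzb and Capza1, which bind filament ends, were the 2 higher, at 0.60 and 0.27.

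RNA of the mitochondrial genome is made and translated inside the organelle. Of the 8 mitochondrial mRNAs tested, 6 were called lower and 0 higher, and with the length trend removed 2 were lower and the median relative to all genes went from -0.69 to -0.27. Both mitochondrial rRNAs were called lower, mt-Rnr1 at -1.51 and mt-Rnr2 at -1.27, and the plates of mt-Rnr1 overlapped. mt-Nd6, the complex I subunit encoded on the strand opposite to the other mRNAs, had ratios of -2.07, -3.26, -2.76 and -2.20 in fRIP and -1.25, -0.94, -1.12 and -1.04 in UV-RIP. Its difference of -1.48 (adjusted p = 1.41e-07) was the largest of the mitochondrial mRNAs. The strand setting of the count is not given in the sources used here, so reads of mt-Nd6 and of RNA from the opposite strand cannot be told apart. mt-Co1, of cytochrome oxidase, had -0.99 (adjusted p = 2.08e-05). mt-Nd5, mt-Cytb, mt-Nd1 and mt-Nd4 were called lower at -0.59, -0.50, -0.49 and -0.43, while mt-Nd3 at -0.82 and mt-Nd2 at -0.40 were not. For these mRNAs the IP side had a median of -0.48 and the input side of 0.03, and the class medians of the plates overlapped. Of the 12 mitochondrial tRNAs tested, 3 were called lower and 0 higher, with a median of -1.37 over the 4 with 10 or more UMIs and -1.10 without fRIP plate 4. Those 3 were mt-Tw at -1.89, mt-Tp at -1.59 and mt-Tq at -1.15. The tRNAs differed on the input side, at 1.38, with the IP side at -0.07.

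The lists of genes that act on RNA and in the nucleus leaned towards lower in fRIP, with members called in both directions. The hnRNP and SR splicing proteins had 14 of 33 called lower and 4 higher, and the spliceosome 21 of 54 and 3. The RNA helicases had 18 of 53 and 4, and the nucleoporins 8 of 24 and 3. The shares called lower were 33.3% to 42.4%, beside 8.07% of all genes tested. The shares called higher were 5.56% to 12.5%, beside 18.6%. The fRIP plate medians lay below the UV ones except for the nucleoporins, where they overlapped. Ddx3x, a DEAD-box helicase of translation initiation, lies on chromosome X from 13280970 to 13294052. It had -0.98, -1.34, -1.05 and -1.03 in fRIP and -0.14, -0.14, -0.05 and -0.03 in UV-RIP, a difference of -1.02 (adjusted p = 1.17e-08). It differed on the input side, where fRIP exceeded UV-RIP by 0.91 in log2 CPM, with the IP side at -0.10. Hnrnpf, a G-tract binding splicing regulator, was the hnRNP with the largest positive difference. Its ratios were 0.13, 0.24, 0.04 and 0.11 in fRIP and -0.59, -0.59, -0.54 and -0.55 in UV-RIP, a difference of 0.70 (adjusted p = 2.70e-07). It was above input in every fRIP plate and below it in every UV plate.

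All 107 chromatin regulators had 10 or more UMIs, and 37 (34.6%) were called higher and 6 lower, beside 27.8% and 12.1% of all such genes. Of 103 molecular motors 30 were called higher and 6 lower, all of them among the 93 with 10 or more UMIs. Their medians of 0.17 were close to the 0.15 of all genes, and with the length trend removed the counts were 16 higher and 13 lower for chromatin regulators and 9 and 13 for motors. With TMM scaling they were 19 and 9 for chromatin regulators and 16 and 15 for motors, and without fRIP plate 4 they were 40 and 9 and 31 and 8. The median bodies of the 2 classes were 51839 and 65041 bases. Kdm4b, a histone H3 lysine demethylase on chromosome 17 from 56326062 to 56402870, had 1.13, 1.47, 1.25 and 1.23 in fRIP and 0.43, 0.35, 0.38 and 0.34 in UV-RIP. Its difference was 0.90 (adjusted p = 5.12e-08), the largest of its class. Smarca5, an ISWI remodelling ATPase, had -0.55 (adjusted p = 3.07e-05), the most negative of its class. Zinc finger genes had 81 of 368 higher and 14 lower and solute carriers 68 of 329 and 27, which for solute carriers were shares near 18.6% and 8.07%, while zinc finger genes were called lower in 3.80%. For zinc finger genes the 14 lower became 24 without fRIP plate 4 and 34 with TMM scaling. Surface receptors had 12 of 56 higher and 7 lower, and 11 and 11 without fRIP plate 4, and matrix genes 10 of 82 in each direction. With the length trend removed the higher and lower counts were 3 and 15 for surface receptors and 4 and 18 for matrix genes, and with TMM scaling 8 and 13 and 5 and 14. For zinc finger, surface receptor and matrix genes the sign of the median turned negative with TMM scaling.

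Some genes were lower although they are long. Igf2r, the mannose 6-phosphate and insulin-like growth factor 2 receptor, has a body of 87259 bases. Its ratios were -0.28, -0.59, -0.28 and -0.18 in fRIP and 0.31, 0.16, 0.28 and 0.47 in UV-RIP, a difference of -0.64 (adjusted p = 1.02e-05). It was below input in every fRIP plate and above it in every UV plate. Col11a1, a fibrillar collagen chain with a body of 190179 bases, had a difference of -0.78 (adjusted p = 0.003). With the length trend removed the 2 differences were larger, at -0.87 and -1.14.

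**Figure D4:**
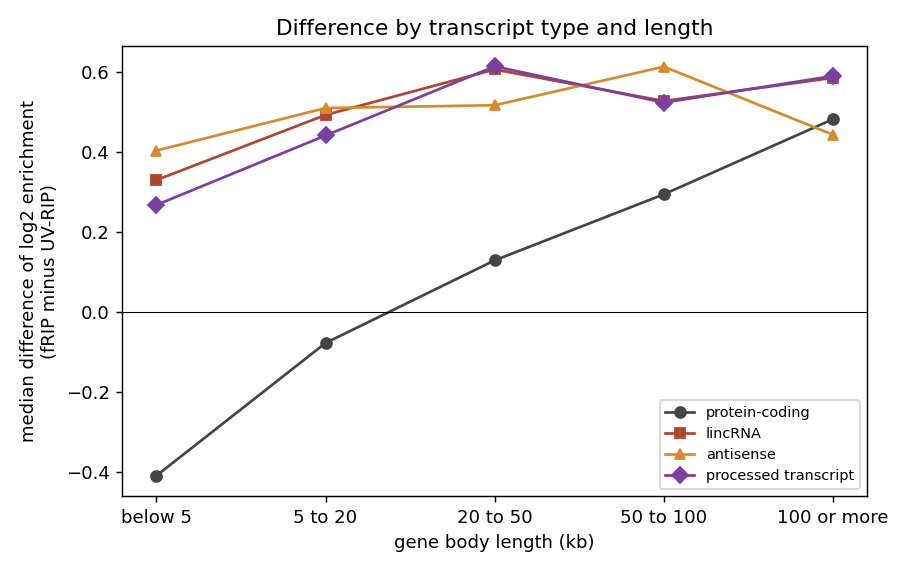
Median difference in log2 enrichment, fRIP minus UV-RIP (vertical axis), of genes with 10 or more UMIs by range of gene-body length (horizontal axis) for protein-coding genes, lincRNA, antisense RNA and processed transcripts. Protein-coding genes climb from -0.41 below 5 kb to 0.48 at 100 kb and more, whereas the noncoding types lie between 0.27 and 0.61 in every range.

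Long noncoding types had positive median differences at every length, and most of their genes were not called. Of lincRNAs 211 of 1793 were called higher and 7 lower, of antisense genes 137 of 1491 and 2, and of processed transcripts 102 of 488 and 4. Among those with 10 or more UMIs, where the background was 27.8% and 12.1%, the counts were 195 and 7 of 573, 132 and 1 of 484, and 101 and 3 of 249, and the medians were 0.49, 0.50 and 0.50. The share of antisense genes called higher did not exceed the background, while few genes of any of these types were called lower. The plate medians of lincRNAs were 0.28, 0.41, 0.22 and 0.31 in fRIP and -0.25, -0.25, -0.18 and -0.17 in UV-RIP. Antisense genes had 0.34, 0.39, 0.42 and 0.39 against -0.19, -0.20, -0.03 and -0.08. For both types every fRIP plate was above input and every UV plate below it. Over all genes tested the UV plates were also below input, with medians of -0.24 to -0.17, and the fRIP plates had -0.09 to -0.04.

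The medians of lincRNAs and antisense genes varied less with length than those of protein-coding genes, and this difference was not tested. Below 5 kb, 1239 protein-coding genes had a median of -0.41, with 26 called higher and 523 lower. In the same range 141 lincRNAs had a median of 0.33, with 28 higher and 6 lower, and 117 antisense genes had 0.40, with 21 higher and 1 lower. At 100 kb and more the medians were 0.48 for 2087 protein-coding genes, 0.59 for 61 lincRNAs and 0.44 for 33 antisense genes, and 67.7%, 39.3% and 27.3% of them were called higher. Processed transcripts went from a median of 0.27 with 22.7% called higher below 5 kb to 0.59 with 68.2% at 100 kb and more. Across 1365 long noncoding genes the Spearman correlation of the difference with body length was 0.19. Relative to the median of all genes, and over all tested members, removal of the length trend took the lincRNA median from 0.33 to 0.43, the antisense median from 0.25 to 0.36 and that of processed transcripts from 0.28 to 0.34. The IP side of these types was near the UV level, with medians of -0.04, -0.05 and -0.05, and the input side was lower in fRIP, by -0.52, -0.56 and -0.59.

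Without a known strand setting, reads of an antisense gene and its partner cannot be told apart. Among 362 pairs of an antisense gene and the overlapping protein-coding gene, both with 10 or more UMIs, the medians were 0.50 and 0.18 and the Spearman correlation across pairs was 0.13. Of the 102 antisense genes of these pairs that were called higher, 38 had a partner that was also called higher. Among called genes of these types with 10 or more UMIs the largest differences sat in weakly covered genes, 2.21 for the lincRNA Gm43625 and 2.09 for the antisense gene Gm43915, each with a mean of 13.9 UMIs.

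Nuclear and imprinted long noncoding RNAs were chosen as a list of 16, of which 15 were tested and 10 called higher and 0 lower, with a median of 0.43 and 0.34 without fRIP plate 4. The plate medians were 0.36, 0.70, 0.37 and 0.45 in fRIP and -0.10, 0.01, -0.12 and 0.10 in UV-RIP. Pvt1, which neighbours Myc on chromosome 15 from 62037986 to 62378096, had 0.89, 1.18, 0.76 and 0.84 in fRIP and 0.08, 0.10, 0.22 and 0.18 in UV-RIP. Its difference of 0.78 (adjusted p = 2.67e-07) was the largest of the list. Neat1, the scaffold of paraspeckles, had 0.62, Meg3 and Nespas, both imprinted, 0.56 and 0.66, and Airn, which silences Igf2r in cis, 0.46. Kcnq1ot1, another imprinted antisense RNA, had 0.33. Malat1, a speckle RNA, had 0.22 (adjusted p = 0.027), near the median of all genes, and was not called with TMM scaling. Sox2ot had 0.39 (adjusted p = 0.0055). Tug1 at -0.02, Rian at 0.22 and Rmst at -0.79 were not called. With TMM scaling 7 were called higher, and also 7 with the length trend removed. The median relative to all genes went from 0.28 to 0.080 with that removal, and to 0.13 without fRIP plates 4 and 5.

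The other transcript types were less even. Processed pseudogenes, intronless copies of mRNAs, had 27 of 1663 called higher and 38 lower and a median of -0.29. Over all tested members and relative to all genes the median was -0.43, and 0.023 with the length trend removed, where 50 were called higher and 2 lower. With TMM scaling 20 were higher and 50 lower. They share sequence with their parent mRNAs, and their reads are uncertain. Unprocessed pseudogenes, which keep introns, had 13 of 198 higher (6.57%) and 1 lower with a median of 0.43. The TEC type, gene models that the annotators hold for further experiments, had 36 of 414 higher (8.70%) and 2 lower with a median of 0.53. Both shares higher were below the 18.6% of all genes tested. Over all tested members the medians were 0.37 and 0.45. The hosts of small nucleolar RNAs had 4 of 17 higher (23.5%) and 1 lower (5.88%), near the 18.6% and 8.07% of all genes tested. Their counts were 8 and 0 without fRIP plate 4 and 9 and 0 with the length trend removed. Snhg15 had 0.59 and Snhg8 -0.49. The short RNAs of RNA polymerase III had 0 called of 9, with a median of -1.48 that became 0.19 without fRIP plate 4. The snRNA and miscellaneous RNA types had medians of -1.44 and -1.46, and -0.06 and 0.06 without that plate, so no direction can be read for them. Terc, the RNA of telomerase, had -0.43, -3.66, -0.39 and -0.35 in fRIP and 0.07, 0.79, 0.14 and 0.23 in UV-RIP. The difference was -1.63 (standard error 0.44, adjusted p = 0.0064) and -0.69 without fRIP plate 4, where its input was 124 CPM against 12.8 to 22.7 in the other fRIP plates.

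Genes of pluripotency and of signalling were split by member. Of 21 pluripotency genes 10 were called lower (47.6%) and 3 higher (14.3%), beside 8.07% and 18.6% of all genes tested. Pou5f1 and Nanog, which form the core circuit with Sox2, had -0.63 (adjusted p = 4.96e-05) and -0.57 (adjusted p = 1.46e-04). Pou5f1 ran from -1.15 to -0.48 in fRIP and from -0.11 to -0.03 in UV-RIP. Dppa5a, Tdgf1 and Klf2 had -0.64, -0.51 and -0.42. The 3 higher were the orphan nuclear receptors Esrrb and Nr5a2, at 0.52 and 0.39, and Zfp42, at 0.31. Esrrb, with a body of 160512 bases, had 0.50, 0.81, 0.49 and 0.51 in fRIP and -0.01, 0.04, 0.10 and 0.08 in UV-RIP (adjusted p = 2.11e-05). With the length trend removed 4 of the 21 were called lower and 2 higher. The summed level of the mESC markers was higher in the fRIP inputs than in the UV inputs, and its part in these values was not tested.

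The feedback genes of TGF-beta and BMP signalling, which these ligands switch on to limit themselves, had 6 of 15 called higher (40%) and 5 lower (33.3%). Smad6 and Smad7, the inhibitory Smads, had 1.17 and 0.54, the corepressor Ski 0.97, Pmepa1 0.90, and the ubiquitin ligases Smurf1 and Smurf2 0.76 and 0.35, all called higher. The members called lower were the secreted inhibitors Lefty1 and Lefty2, at -0.84 and -0.77, the decoy receptor Bambi, at -0.73, and the helix-loop-helix inhibitors Id2 and Id3, at -1.09 and -0.51. Smad6, on the minus strand of chromosome 9 from 63953076 to 64022059, had 1.34, 2.10, 1.49 and 1.30 in fRIP and 0.30, 0.33, 0.44 and 0.42 in UV-RIP (adjusted p = 2.00e-07). Its fRIP and UV plates did not overlap. Lefty1 ran from -1.28 to -0.48 in fRIP and from -0.12 to 0.21 in UV-RIP. The immediate early genes had 5 of 16 lower (31.2%) and 0 higher, and 0 in either direction with the length trend removed. The p53 targets had 2 of 14 higher (14.3%) and 4 lower (28.6%), and the cell cycle genes 3 of 37 higher (8.11%) and 15 lower (40.5%). Of all genes tested 18.6% were called higher and 8.07% lower.

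**Figure D5:**
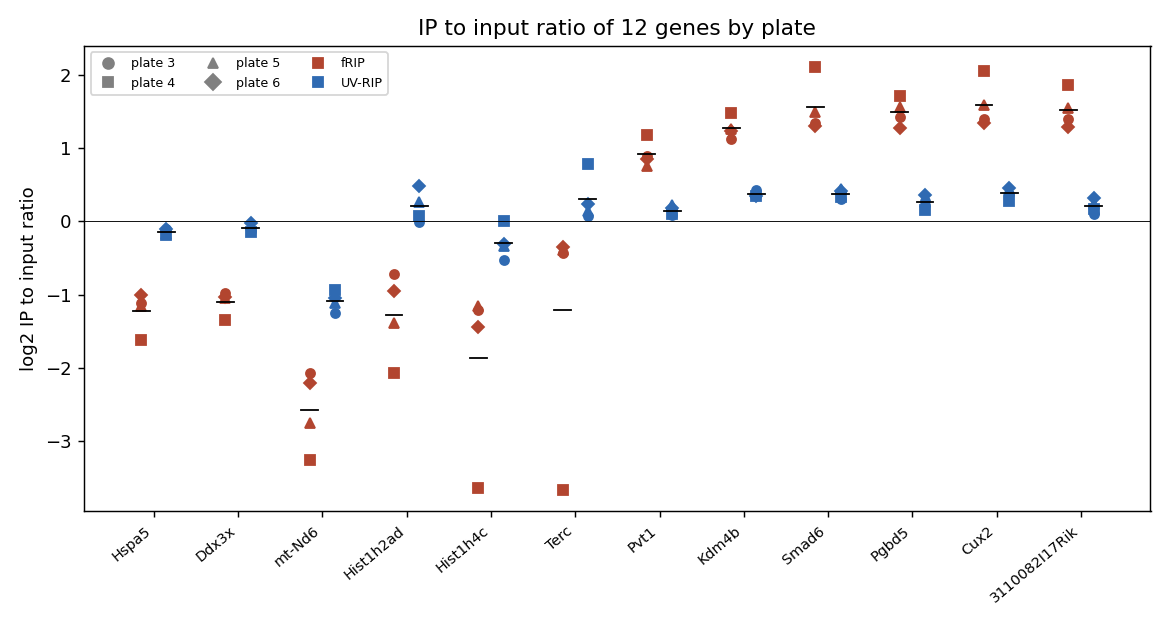
Log2 IP to input ratio (vertical axis) in each plate for 12 named genes, fRIP in red and UV-RIP in blue, with the plate given by the symbol and the mean of the 4 plates by a bar. Hspa5, Ddx3x, mt-Nd6 and Hist1h2ad have all fRIP plates below all UV plates, and Pvt1, Kdm4b, Smad6, Pgbd5, Cux2 and 3110082I17Rik all above, while Terc rests largely on fRIP plate 4 at -3.66.

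The genes with the largest positive differences at 100 or more UMIs belonged to no list. 3110082I17Rik, on the minus strand of chromosome 5 from 139359739 to 139460527, had ratios of 1.39, 1.86, 1.55 and 1.29 in fRIP and 0.10, 0.17, 0.24 and 0.31 in UV-RIP. Its level was 238 ± 15.9 CPM after and 84.0 ± 17.2 CPM before the formaldehyde pull-down, and 149 ± 10.7 CPM after and 129 ± 12.5 CPM before the UV pull-down (SD, n = 4 each). The difference was 1.31 (standard error 0.10, adjusted p = 4.11e-09), from a higher IP and a lower input together. Pgbd5, a domesticated piggyBac transposase on chromosome 8 from 124369049 to 124439658, had 1.42, 1.71, 1.56 and 1.27 in fRIP and 0.27, 0.15, 0.26 and 0.36 in UV-RIP. Its difference was 1.23 (adjusted p = 4.11e-09). Cux2, a homeobox gene on chromosome 5 from 121856366 to 122050102, had 1.39, 2.05, 1.59 and 1.34 in fRIP and 0.38, 0.28, 0.42 and 0.45 in UV-RIP, with a difference of 1.20 (adjusted p = 3.16e-08). All 3 were above input with both reagents, and by more in fRIP. Klhl26, a Kelch adaptor, with a body of 26750 bases, had 1.21, and 1.19 with the length trend removed. The others were Gng7, a G protein subunit, at 1.22, Mb, myoglobin, at 1.21, the kinase Hipk4 at 1.20, the procollagen peptidase Adamts2 at 1.19, and Gm16268, Gm21887, Gm49325 and the unnamed ENSMUSG00000052471.2 at 1.28, 1.24, 1.18 and 1.32.

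Across chromosomes the median difference lay between 0.09 and 0.23 on the autosomes. The X chromosome had 0.01 over 479 genes, with 91 called higher and 86 lower. The shares over all genes with 10 or more UMIs were 27.8% and 12.1%. These values are given only with total UMIs as library size, and the part of gene length in them was not tested.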

How the data were processed

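The authors aligned paired-end reads with STAR, kept uniquely placed reads, and with featureCounts assigned UMIs to the gene bodies of GENCODE vM16. The deposited values are these raw counts, in 16 columns. The libraries were depleted of ribosomal RNA. The versions of STAR and featureCounts and the strand setting are not given in the sources used here. Coordinates, types and lengths are from GENCODE vM21 on GRCm38, where 50604 of 53379 genes matched by identifier and version and 2670 by identifier alone, for which no coordinates are given, and 105 did not match.

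Genes reaching 3 UMIs in any library were fitted in R 4.3.3 with edgeR 4.0.16 (quasi-likelihood test of the interaction, plate as block, total UMIs as library size, Benjamini-Hochberg adjusted p below 0.05). DESeq2 1.42.0 was an alternative, beside other scalings, filters, thinning, trends on length or GC removed, no block, a fold of 1.5 required and each plate left out. The block follows the design, since IP and input of a plate share a lysate. Their deviations from the group means correlated at 0.594, 0.114, 0.595 and 0.318 in fRIP and 0.261, 0.202, 0.435 and 0.0279 in UV-RIP over 10208 genes with 100 or more UMIs. Replicates differed by more than sampling noise (chi-square divided by its degrees of freedom, at least 1.52). Pairs of UV libraries had 1.52 to 8.33. The input of fRIP plate 4 had 41 to 51.9 against the other fRIP inputs. The IP of fRIP plate 5 had 38.3 to 60 against the other fRIP IP libraries. The remaining fRIP pairs had 3.17 to 13.5. The fits were tested on simulated data.

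Plate ratios are log2 of CPM ratios with 0.5 UMIs added. Class and type medians, with the IP and input sides, are over members with a mean of 10 or more UMIs, and counts of calls over all tested members. Totals were 17728081 to 21211537 UMIs in fRIP IP, 13627606 to 15381686 in fRIP input, 14218784 to 17281596 in UV IP and 12456298 to 13828610 in UV input libraries.

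The members and lists were chosen with earlier results of these data known, and lists have no test of their own. Genes were named by rule: the 12 largest differences in each direction among called genes with 100 or more UMIs and plates that do not overlap, and in each list and type the largest called in each direction with 10 or more UMIs, plus reference RNAs. Other list members were named after their values were seen. The list of ER folding genes and the fit without fRIP plates 4 and 5 were chosen after seeing the data.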

Additional observations from a re-analysis of the deposited data

Results flagged for a closer look

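The interaction test itself marked 6116 genes whose effect of the IP differed between the crosslinkers.

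Within groups of 4 plates, a plate was marked where its gap to the nearest other plate took up more of the group's range than Dixon's 95% limit allows. This was so in 24 of 176 groups, and chance gives about 1 in 20 where groups are independent. These groups are not, since classes and their members share the deviation of a plate, and many genes were chosen by their differences. The 24 are therefore not a count of separate deviations. The fRIP plate 4 made up most of them. Its class medians of the log2 IP to input ratio were -4.65 for RNA polymerase III transcripts, -3.84 for miscellaneous RNA, -2.11 for histones, -1.01 for proteasome genes and -0.82 for mitochondrial ribosomal proteins, all below the other fRIP plates, and 0.59 for surface receptors, 0.23 for motors and 0.21 for chromatin regulators, above them. Among single genes it was lowest for Hist1h4f (-4.04), Terc (-3.66), Hist1h4c (-3.64), Hist1h4h (-3.30), Hist1h4j (-3.11), Hist1h4d (-2.79), Hist1h4b (-2.52) and Gm42743 (-2.43), and highest for Klhl26 (1.89), ENSMUSG00000052471.2 (1.70) and Brd2 (1.34). The fRIP plate 5 stood apart for Gm42418, at 0.36.

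Of the UV plates, plate 4 was highest for ribosomal proteins (-0.48, against -0.62 to -0.59), for histones (-0.025) and for Hist1h4d (0.093), and plate 5 stood apart for aminoacyl-tRNA synthetases (-0.15). What set these plates apart was not tested.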

How the results depend on the processing

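The counts of 4264 genes higher and 1852 lower in fRIP depend on the zero point that the library size sets. TMM scaling gave 3062 and 2810, library sizes without Gm26917 and Gm42418 gave 2863 and 2955, and DESeq2 with median-of-ratios size factors gave 2114 and 2364, so that 52.2%, 49.2% and 47.2% of the calls were higher, against 69.7%. Without the replicate block, the pairing of IP and input by plate, 3285 were higher and 1214 lower. Requiring a fold of 1.5 left 1806 and 616, or 2422 in all. Leaving out each plate in turn gave 3494 to 4522 higher and 1461 to 2106 lower, and without fRIP plates 4 and 5 there were 4488 and 1859. The block changed the side of the threshold for 13 of the 112 named genes and TMM scaling for 4.

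Medians relative to that of all genes tested moved most with the removal of the trend on body length. Over all tested members that removal took nuclear and imprinted long noncoding RNAs from 0.28 to 0.080, chromatin regulators from 0.029 to -0.086, motors from 0.03 to -0.11, actin and tubulin genes from -0.71 to -0.43, histones from -1.12 to -0.71, mitochondrial mRNAs from -0.69 to -0.27, antisense genes from 0.25 to 0.36, lincRNAs from 0.33 to 0.43 and processed pseudogenes from -0.43 to 0.023. Antisense genes had 0.35 with 10 UMIs required in 4 libraries, and 0.16 to 0.35 as each plate was left out. Processed pseudogenes had -0.52 to -0.29 as each plate was left out, and -0.32 without fRIP plates 4 and 5. Chromatin regulators had -0.01 to 0.05 as each plate was left out.

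The rRNA-like n-R5-8s1, at -3.86 (adjusted p = 0.0353), ran from -4.80 to 0.94 as each plate was left out, with the latter value without fRIP plate 4, and became 0.90 without fRIP plates 4 and 5, and the snRNA Gm26316, at -2.14, became 0.27 without the latter. The values of 0.94, 0.90 and 0.27 did not pass the threshold. The cause was not tested. Genes with a mean of under 10 UMIs were rarely called, since their counts limit the precision, and intervals were not computed for them.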

Other observations

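Of the 4 rRNA-like loci tested, 3 were called lower in fRIP, with a median of -0.55. Without fRIP plate 4 the median was -0.082, with 2 called lower and 1 higher, and n-R5-8s1 turned from -3.86 to 0.94. Gm42418 had -0.44 beside the -0.55 of Gm26917. Marker lists of other cell states had no call. The primed epiblast markers had 0 of 10, the primitive endoderm markers 0 of 9 and the fibroblast markers 0 of 4. The 2-cell markers had 0 of 9 called and were near the limit of detection.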
